A study of Mus musculus with 24 samples.

Results

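The 8 genes of enzymes and helper proteins that turn arachidonic acid into leukotrienes and prostaglandins, namely Alox5, Alox5ap, Lta4h, Ltc4s, Alox15, Ptgs1, Ptgs2 and Hpgds, were followed across the bone marrow (BM) LSKs of 4 groups of mice. The 8 genes were taken by symbol from a read count table of 24091 genes, and 8 of 8 were found and passed the filter on low counts. LSKs are Lin-Sca-1+c-Kit+ cells, the sorted fraction of mouse marrow in which hematopoietic stem and early progenitor cells are enriched. The groups were WT mice with intact miR-142 (miR-142+/+), miR-142 KO mice (miR-142-/-, a constitutive knockout), CP CML (miR-142+/+ BCR-ABL, a mouse model of chronic phase chronic myeloid leukemia) and BC CML (miR-142-/- BCR-ABL, the same leukemia mouse without miR-142, which the study treats as a model of blast crisis). Each group had 6 mice, 3 females and 3 males, with 1 library per mouse. All were on the B6 background. In both leukemia groups BCR-ABL was switched on by withdrawing tetracycline under the SCL promoter, so expression is limited to cells that use that promoter, and cells were taken 2 weeks later. The study matched its leukemia mice for age, and the labels used here give no age.

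Arachidonic acid is released from membrane phospholipids by cytosolic phospholipase A2 and then enters one of several routes. In the leukotriene route, 5-lipoxygenase (Alox5) works at the nuclear membrane with its helper FLAP (Alox5ap) to make leukotriene A4, which Lta4h turns into the neutrophil attractant leukotriene B4 and Ltc4s into the cysteinyl leukotrienes. In the prostaglandin route, the cyclooxygenases Ptgs1 (constitutive in many cells) and Ptgs2 (induced by many stimuli) make prostaglandin H2, from which Hpgds makes prostaglandin D2 in mast cells and other blood cells. Alox15 is a lipoxygenase that inserts oxygen at another position and is well known from eosinophils and some macrophages. Myeloid cells, mast cells, basophils and eosinophils are the classical blood sources of these lipids.

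The sequences of the 2 miR-142 strands are shown because every comparison of miR-142-/- with miR-142+/+ mice removes both, and the seed (bases 2 to 8, in capitals) is the stretch that pairs with target RNAs. They lie at chr11:87756867-87756887 and chr11:87756903-87756925 on the plus strand (RefSeq, GRCm38.p6, the same assembly as the mm10 build of the files).
mmu-miR-142a-5p: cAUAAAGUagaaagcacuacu
mmu-miR-142a-3p: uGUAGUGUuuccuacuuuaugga
The reverse complement of the 3p seed was in the 3′ UTR of 0 of the 8 genes, against 6.0% of 20981 genes with a 3′ UTR in GENCODE vM21 (longest UTR per gene). The reverse complement of the 5p seed was in the 3′ UTR of 3 of the 8 genes (Alox5, Ptgs1 and Hpgds), against 14.3% of genes. These 3 stretches, written as in the transcript with the seed match in capitals, lie at chr6:116410361-116410389 on the minus strand, chr2:36251620-36251648 on the plus strand and chr6:65119720-65119748 on the minus strand, each within 1 exon.
Alox5: gggtcaggggtACTTTATtctatttatgc
Ptgs1: ataggcttaaaACTTTATattatagggta
Hpgds: caaaactttacACTTTATaattgcaggga
A match of 7 bases is a description of letters and no evidence of pairing.

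The libraries held 16267965 to 24687077 counted reads each, so each of the 8 genes was read from 9 counts upward per library. Mir142, the deleted gene, had 0 counts in the 12 libraries of miR-142-/- mice and 68 to 153 in the 12 libraries of the other groups. Kit and Ly6a (Sca-1), which define the sort, were present in every library, with Ly6a at a median of 42.4 CPM (counts scaled to library size) in WT, 51.6 in CP CML, 81.5 in miR-142 KO and 106 in BC CML. WT replicate 3 stood apart in marrow macrophage markers, with a summed level of 1372 CPM over 9 markers against 71.3 to 262 in the other WT libraries. The summed level of 12 mast cell and basophil markers was 103 to 631 CPM in WT, 2527 to 5184 in CP CML, 377 to 3198 in miR-142 KO and 7015 to 14906 in BC CML. In bulk samples of this kind, fewer cells of a type and less RNA per cell cannot be told apart.

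A gene was called where the adjusted p was below 0.05 (edgeR's quasi-likelihood test with Benjamini-Hochberg adjustment over 13520 genes, all 24 libraries in 1 fit). To ask what miR-142 loss does without BCR-ABL, miR-142 KO was compared with WT, and 3 of the 8 genes were higher (Alox5, Alox5ap and Lta4h) and 0 lower, where 36.3% of all genes were called (19.9% higher, 16.4% lower). To ask what it does on top of BCR-ABL, BC CML was compared with CP CML, and 3 were higher (Alox5ap, Lta4h and Ptgs1) and 1 lower (Hpgds), where 38.0% of all genes were called (20.4% higher, 17.6% lower). For BCR-ABL itself, CP CML had 4 higher than WT (Alox5, Alox5ap, Lta4h and Hpgds) and 0 lower, where 45.4% of all genes were called (22.5% higher, 22.9% lower). BC CML had 4 higher than miR-142 KO (Alox5, Alox5ap, Ptgs1 and Hpgds) and 0 lower, where 39.6% were called (20.3% higher, 19.3% lower). With upper quartile normalization in place of TMM the counts were 3 higher and 1 lower in miR-142 KO versus WT and in BC CML versus miR-142 KO, since Hpgds and Alox15 were then called lower and Alox5ap was not called in the second. In BC CML versus CP CML it gave 2 higher and 1 lower, and in CP CML versus WT 3 higher and 0 lower, since Lta4h was then not called. Over all genes upper quartile normalization called 2115 higher and 2918 lower in miR-142 KO versus WT, and 2383 and 3135 in BC CML versus miR-142 KO. It called 2162 and 2932 in BC CML versus CP CML, and 2642 and 3702 in CP CML versus WT. A fit of the 12 leukemia libraries alone called 7 of the 8 in BC CML versus CP CML (4 higher and 3 lower, with Alox5, Ltc4s and Alox15 added), where it called 43.3% of all genes. In the other 3 comparisons fits of the compared groups alone called 3, 4 and 3. No share over all genes is given here for those fits, so these counts are not read further. With all 24 libraries in the fit the counts of 3 or 4 of 8 stood near the backgrounds. Over the 8 genes the median log2 difference was 0.39 for miR-142 KO versus WT, 0.04 for BC CML versus CP CML, 0.25 for CP CML versus WT and 0.21 for BC CML versus miR-142 KO, while over all genes tested it was 0.01, 0.01, -0.02 and -0.02.

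**Figure D1:**
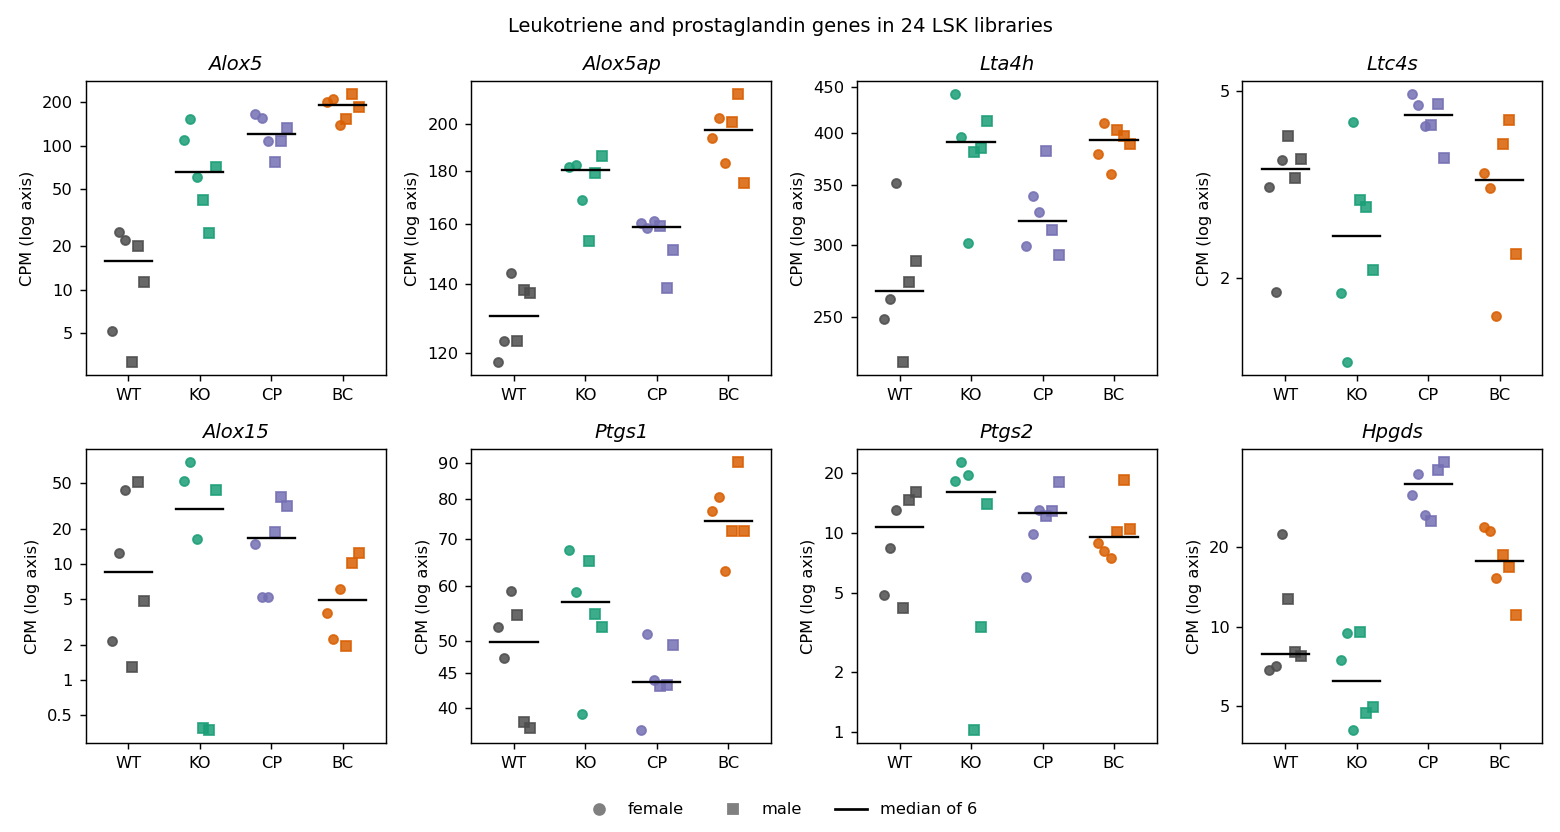
Levels of the 8 genes in CPM on a log axis, 1 point per library (circles females, squares males) with the median of each group of 6 as a line. Alox5 runs from 3.14 CPM in a WT library to 227 in a BC CML library, Ptgs1 is above all CP CML libraries in every BC CML library, and Alox15 is spread over orders of magnitude within miR-142 KO.

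Alox5, the 5-lipoxygenase gene (ENSMUSG00000025701, chr6:116410071-116461178, minus strand, mm10), differed most among the leukotriene genes. Its level was 5.17, 25.1, 22.1, 3.14, 20.2 and 11.3 CPM in the 6 WT libraries. In miR-142 KO it was 109.5, 153, 60.8, 42.1, 24.6 and 71.4 CPM, so that only replicate 5 fell inside the WT range. In CP CML it was 165, 156, 108, 77.3, 108 and 132 CPM, and every library was above every WT library. In BC CML it was 199.96, 211, 139, 152, 227 and 186 CPM, the highest of the groups. The means were 14.5 ± 9.26 CPM in WT, 124 ± 33.1 in CP CML, 76.9 ± 47.0 in miR-142 KO and 186 ± 34.2 in BC CML (SD, n = 6). Alox5 was 5.30-fold higher in miR-142 KO than in WT (log2 2.41, SE 0.41, adjusted p = 7.5e-05) and 8.58-fold higher in CP CML than in WT (log2 3.10, SE 0.42, adjusted p = 5.5e-06). It was 2.42-fold higher in BC CML than in miR-142 KO (log2 1.27, SE 0.38, adjusted p = 0.0111). The step from CP CML to BC CML was 1.495-fold (log2 0.58, 95% interval -0.20 to 1.36, adjusted p = 0.232) and was not called, nor was the difference between CP CML and miR-142 KO (log2 0.69, adjusted p = 0.158). With the groups ordered by mean, WT and miR-142 KO were the only neighbours whose difference was called, and their ranges overlapped through miR-142 KO replicate 5. In a fit of the 12 leukemia libraries alone the step from CP CML to BC CML was called (log2 0.56, adjusted p = 0.0126). The females of miR-142 KO averaged 108 CPM and the males 46.0, while in BC CML the sexes averaged 183 and 188.

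Alox5ap, which encodes FLAP (ENSMUSG00000060063, chr5:149265004-149288153, plus strand), had smaller but tighter differences. Its lowest, median and highest levels were 118, 130.3 and 143 CPM in WT. They were 154, 180.4 and 186 CPM in miR-142 KO, all above WT. In CP CML they were 139, 159 and 161 CPM, below 5 of the 6 miR-142 KO libraries. In BC CML they were 175, 197 and 213 CPM, all above CP CML. The gene was 1.34-fold higher in miR-142 KO than in WT (log2 0.43, SE 0.06, adjusted p = 5.0e-06) and 1.26-fold higher in BC CML than in CP CML (log2 0.33, SE 0.06, adjusted p = 1.0e-04). CP CML was 1.19-fold above WT (adjusted p = 0.0016) and 1.13-fold below miR-142 KO (adjusted p = 0.0183). The excess of BC CML over miR-142 KO was 1.11-fold (log2 0.15, adjusted p = 0.0413) and was lost in 18 of 24 fits that left out 1 library (log2 0.11 and adjusted p = 0.12 without BC CML replicate 5). An opposite-strand gene, Gm19719, shares 14.0% of the exon bases of Alox5ap in GENCODE vM21, and whether counting used the strand is not given in the sources used here.

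Lta4h, the leukotriene A4 hydrolase gene (ENSMUSG00000015889, chr10:93453396-93484896, plus strand), had the highest CPM of the 8. WT libraries lay between 223 and 351 CPM with a median of 267, and the highest was replicate 3. In miR-142 KO they lay between 302 and 441 CPM with a median of 390.2. CP CML lay between 292 and 382 CPM (median 319) and BC CML between 360.0 and 409.8 (median 393), the narrowest spread of the groups. It was 1.41-fold higher in miR-142 KO than in WT (log2 0.49, SE 0.09, adjusted p = 1.7e-04) and 1.197-fold higher in BC CML than in CP CML (log2 0.26, SE 0.09, adjusted p = 0.0265). CP CML was 1.19-fold above WT (log2 0.25, adjusted p = 0.0296), and BC CML and miR-142 KO differed by a log2 of 0.01 (95% interval -0.17 to 0.20, adjusted p = 0.926). The call of BC CML against CP CML was lost in 8 of 24 fits that left out 1 library (CP CML replicates 1, 3, 5 and 6 and BC CML replicates 2, 4, 5 and 6, with log2 0.21 and adjusted p = 0.0904 without CP CML replicate 6). The call of CP CML against WT was lost without WT replicate 1 or 4 or CP CML replicate 4 (log2 0.20 and adjusted p = 0.0734 without WT replicate 4), and upper quartile normalization ended both calls (adjusted p = 0.068 for BC CML against CP CML and 0.0645 for CP CML against WT). A fit of CP CML and WT alone also ended the latter (log2 0.25, adjusted p = 0.051).

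Ltc4s, the leukotriene C4 synthase gene (ENSMUSG00000020377, chr11:50236461-50238532, minus strand), had the lowest group means of the 8 in CPM, at 30 to 113 counts per library. Its lowest, median and highest levels were 1.87, 3.41 and 4.01 CPM in WT, 3.59, 4.44 and 4.91 in CP CML, 1.33, 2.45 and 4.29 in miR-142 KO and 1.66, 3.23 and 4.34 in BC CML. CP CML thus had the highest median, and its range overlapped that of every other group. No difference was called in miR-142 KO versus WT, BC CML versus CP CML, CP CML versus WT or BC CML versus miR-142 KO, and BC CML versus CP CML had the lowest adjusted p (log2 -0.50, 95% interval -0.99 to -0.01, adjusted p = 0.102). CP CML was 1.71-fold above miR-142 KO (log2 0.78, SE 0.24, adjusted p = 0.0138). Fits of the 2 compared groups alone called Ltc4s lower in BC CML against CP CML (adjusted p = 0.0423) and higher in CP CML than in WT (adjusted p = 0.0419). The gene shares 29.4% of its exon bases with Gm26542 on the opposite strand.

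Alox15 (ENSMUSG00000018924, chr11:70344147-70352031, minus strand) varied widely between mice of a group, with a coefficient of variation of 71.5% to 116%. Its level was 2.17, 12.5, 44.2, 1.29, 51.9 and 4.77 CPM in WT and 52.7, 76.1, 16.5, 0.383, 0.369 and 44.0 CPM in miR-142 KO, where replicates 4 and 5 were far below the rest. CP CML libraries had 15.0, 5.20, 5.17, 19.1, 38.2 and 31.7 CPM, and BC CML libraries 3.77, 2.24, 6.05, 1.95, 10.3 and 12.6. The females averaged 48.5 CPM and the males 14.9 in miR-142 KO, against 8.45 and 29.7 in CP CML. In WT the sexes averaged 19.6 and 19.3 CPM, and in BC CML 4.02 and 8.31. BC CML had the lowest median (4.91 CPM, against 8.64 in WT, 30.2 in miR-142 KO and 17.0 in CP CML), and all groups overlapped. No difference between groups was called. BC CML was 5.11-fold below miR-142 KO (log2 -2.35, SE 0.95, adjusted p = 0.0525) and 3.08-fold below CP CML (log2 -1.62, SE 0.94, adjusted p = 0.181). The first of these was called by the likelihood ratio test of edgeR (adjusted p = 0.0307) and by DESeq2 (adjusted p = 0.0366), with a range over the alternatives of 0.026 to 0.133. The second was called in the fit of the 12 leukemia libraries alone (log2 -1.64, adjusted p = 0.0246).

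Ptgs1, the COX-1 gene (ENSMUSG00000047250, chr2:36230426-36252271, plus strand), was highest in BC CML. WT libraries ranged from 37.5 to 59.1 CPM (median 49.8) and miR-142 KO libraries from 39.2 to 67.5 (median 56.8). CP CML libraries ranged from 37.2 to 51.1 CPM (median 43.6). BC CML libraries ranged from 63.1 to 90.3 CPM (median 74.4), and none overlapped CP CML or WT. BC CML was 1.70-fold above CP CML (log2 0.76, SE 0.12, adjusted p = 4.0e-05), 1.57-fold above WT (log2 0.65, adjusted p = 6.8e-05) and 1.35-fold above miR-142 KO (log2 0.43, SE 0.12, adjusted p = 0.0082). miR-142 KO was not called against WT (log2 0.23, 95% interval -0.03 to 0.48, adjusted p = 0.155), and CP CML was 1.26-fold below miR-142 KO (adjusted p = 0.0366, and 0.0508 with those 2 groups alone in the fit). Gm43621, on the opposite strand, shares 5.16% of its exon bases.

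Ptgs2, the COX-2 gene (ENSMUSG00000032487, chr1:150100031-150108234, plus strand), was low and scattered. Its lowest, median and highest levels were 4.18, 10.7 and 16.1 CPM in WT, 6.003, 12.5 and 18.1 in CP CML, 1.02, 16.2 and 22.7 in miR-142 KO and 7.515, 9.51 and 18.5 in BC CML. The lowest miR-142 KO libraries were again replicates 4 and 5, both males, at 1.02 and 3.37 CPM. In that group the females averaged 20.2 CPM and the males 6.11. The sexes averaged 8.79 and 11.7 CPM in WT, 9.63 and 14.4 in CP CML and 8.17 and 13.0 in BC CML. All groups overlapped and no comparison was called, the largest difference being a log2 of 0.36 between miR-142 KO and WT (SE 0.47, adjusted p = 0.574).

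Hpgds, the hematopoietic prostaglandin D synthase gene (ENSMUSG00000029919, chr6:65117293-65144730, minus strand), rose with BCR-ABL and was lower in BC CML against CP CML. Its level was 6.85 to 22.5 CPM in WT with a median of 7.89, and the highest value was again replicate 3. In miR-142 KO it was 4.07 to 9.60 CPM (median 6.23). All CP CML libraries were higher, from 25.2 to 42.1 CPM (median 34.8), and BC CML lay between, from 11.1 to 23.9 (median 17.8). CP CML was 3.11-fold above WT (log2 1.64, SE 0.27, adjusted p = 6.3e-05) and BC CML 2.70-fold above miR-142 KO (log2 1.43, SE 0.28, adjusted p = 4.6e-04), with no overlap in either. BC CML was 1.86-fold below CP CML (log2 -0.89, SE 0.27, adjusted p = 0.0108), again with no overlap. miR-142 KO was 1.61-fold below WT, which was not called (log2 -0.69, 95% interval -1.27 to -0.11, adjusted p = 0.0569). Without WT replicate 3 that difference was a log2 of -0.33 (adjusted p = 0.285). It was called by DESeq2 (adjusted p = 0.0337), by the likelihood ratio test of edgeR (adjusted p = 0.0396) and under upper quartile normalization (adjusted p = 0.0422). In all, 8 of 32 alternatives called it. BC CML was 1.68-fold above WT (adjusted p = 0.0202), so the order was CP CML, BC CML, WT and miR-142 KO. Of these neighbours CP CML and BC CML did not overlap, BC CML and WT differed by the test but overlapped in range, and WT and miR-142 KO were not called.

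**Figure D2:**
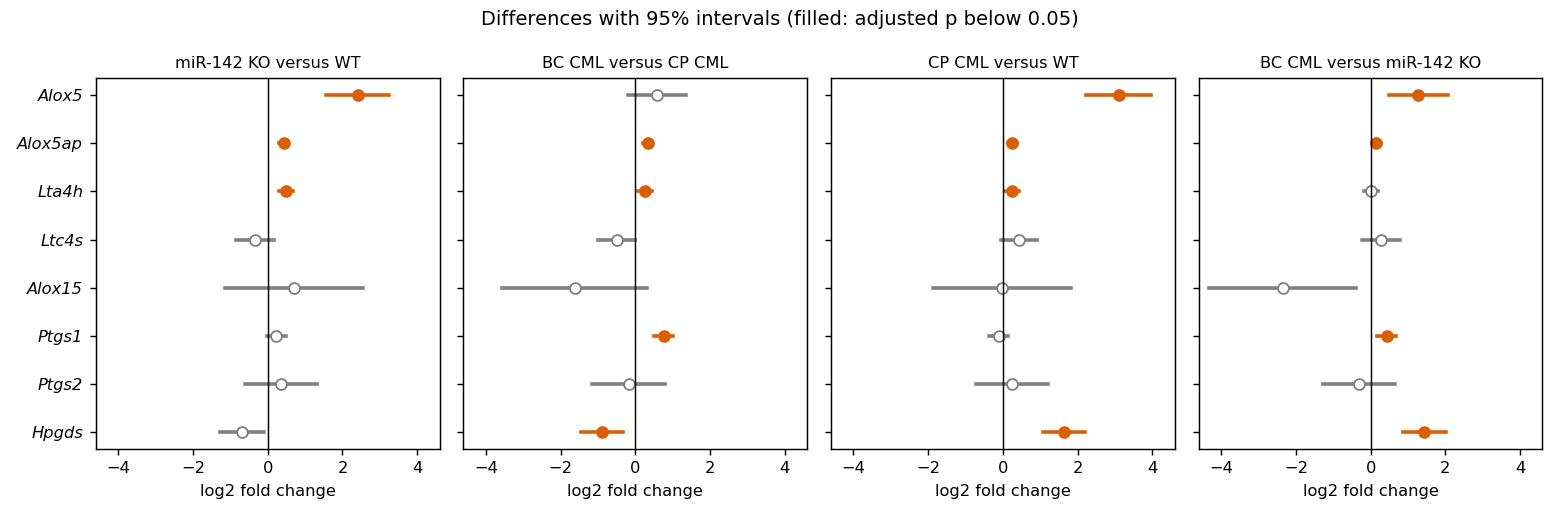
Log2 fold changes of the 8 genes in 4 comparisons with their 95% intervals; filled orange points have an adjusted p below 0.05. Alox5 is the largest called difference where BCR-ABL or miR-142 loss is compared with WT (3.10 and 2.41), Ptgs1 and Hpgds stand on opposite sides of 0 in BC CML versus CP CML, and the intervals of Alox15 are the widest.

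The groups did not overlap for 1 of the 8 genes in miR-142 KO versus WT (Alox5ap), where 14.5% of all genes did not overlap. They did not overlap for 3 genes in BC CML versus CP CML (Alox5ap, Ptgs1 and Hpgds), where the share was 20.7%. For 2 genes they did not overlap in CP CML versus WT (Alox5 and Hpgds), where it was 21.8%, and for 1 gene in BC CML versus miR-142 KO (Hpgds), where it was 10.6%. BC CML had 5 of 8 genes higher than WT and 0 lower, where 65.0% of all genes were called. CP CML had 2 higher (Ltc4s and Hpgds) and 3 lower (Alox5ap, Lta4h and Ptgs1) than miR-142 KO, where 36.6% were called. With those 2 groups alone in the fit Lta4h and Ptgs1 were no longer called lower (adjusted p = 0.0512 and 0.0508), which left 2 higher and 1 lower, where 32.5% of all genes were called. Leaving out 1 library ended the lower call of Lta4h in 8 of 24 fits, that of Ptgs1 in 8 and that of Alox5ap in 1 (without CP CML replicate 5). The 8 genes then had 3 calls without miR-142 KO replicate 1 or 5 or CP CML replicate 1 or 3, and 2 without CP CML replicate 5. No share over all genes is given here for these fits, so their counts are not read further. Whether the effect of miR-142 loss itself depended on BCR-ABL was tested as the difference of the 2 differences, BC CML versus CP CML minus miR-142 KO versus WT. Of the 8 genes, 0 were called by edgeR's quasi-likelihood test, where 3.99% of all genes were, and 2 had an unadjusted p under 0.05. These were Alox5, whose effect was smaller under BCR-ABL (log2 -1.83, SE 0.55, adjusted p = 0.0604), and Ptgs1, whose effect was larger (log2 0.54, SE 0.17, adjusted p = 0.0837). Alox5 was called lower by the likelihood ratio test of edgeR (adjusted p = 0.0305) and by DESeq2 (adjusted p = 0.0434).

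Per kilobase of transcript (RPKM), by the gene lengths supplied with the counts, Alox5ap had the highest mean of the 8 genes in every group. Its mean ran from 129 in WT to 193 in BC CML. Those lengths are 1.009 kb for Alox5ap and 4.802 kb for Lta4h, while GENCODE vM21 gives 1346 and 2029 exon bases. The order of these 2 genes thus rests on the lengths used and is not read further. The mean RPKM of Lta4h was 57.1 in WT, 67.8 in CP CML, 80.4 in miR-142 KO and 81.1 in BC CML. Alox5 moved from 4.87 in WT through 25.8 with miR-142 KO and 41.8 with CP CML up to 62.5 with BC CML. The ratio of Alox5 to Alox5ap in RPKM was 0.0371 ± 0.0236 in WT, 0.273 ± 0.0693 in CP CML, 0.147 ± 0.0850 in miR-142 KO and 0.323 ± 0.0512 in BC CML (SD, n = 6). FLAP transcript thus exceeded 5-lipoxygenase transcript in every library, the highest ratio being 0.361. Among the cyclooxygenases Ptgs1 was above Ptgs2 in every library, by 3.13-fold at the least and by a median of 7.91-fold in WT, 5.38-fold in CP CML, 5.79-fold in miR-142 KO and 12.1-fold in BC CML. Ltc4s stayed between 2.02 and 7.50 RPKM. The ratio of Hpgds to Tbxas1, the thromboxane synthase gene, had a median of 0.262 in WT and 0.265 in miR-142 KO but 1.09 in CP CML and 0.689 in BC CML.

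Another 56 genes of the pathway, taken from textbook roles and listed with earlier results of these data known, were all found, and 42 passed the filter. Of these, 14 were higher and 5 lower in miR-142 KO against WT, and 14 higher and 6 lower in BC CML against CP CML, with median log2 differences of 0.17 and 0.08. Upper quartile normalization gave 11 higher and 8 lower, and 7 higher and 7 lower. CP CML had 12 higher and 8 lower than WT, and BC CML 9 higher and 6 lower than miR-142 KO. The counts are shares of 42 genes against the backgrounds given above.

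**Figure D3:**
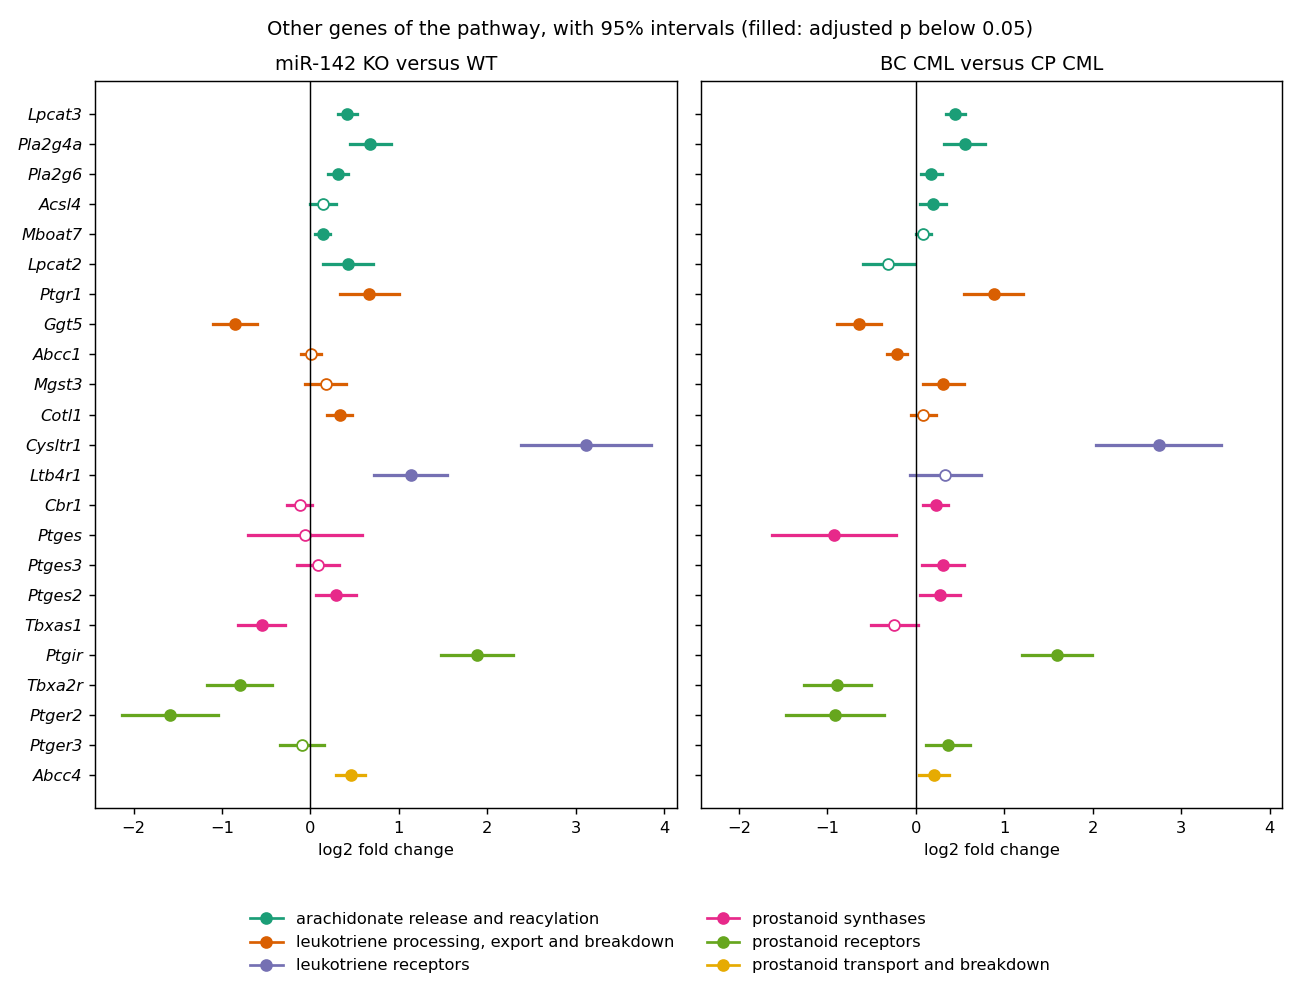
Log2 fold changes of 23 further pathway genes chosen by their p in miR-142 KO versus WT and in BC CML versus CP CML, with 95% intervals, coloured by role (filled: adjusted p below 0.05). Cysltr1 and Ptgir lie furthest to the right in both panels, and Ptger2, Tbxa2r and Ggt5 lie left of 0 in both.

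Among genes that release or take back arachidonic acid, 6 of 8 tested were higher in miR-142 KO than in WT and 0 lower, and 4 were higher in BC CML than in CP CML and 0 lower. Pla2g4a, the cytosolic phospholipase A2 that feeds both routes, had a median of 98.9 CPM in WT, 115 in CP CML, 147 in miR-142 KO and 171 in BC CML. It was 1.6-fold higher in miR-142 KO than in WT (log2 0.68, adjusted p = 5.1e-05) and 1.47-fold higher in BC CML than in CP CML (log2 0.55, adjusted p = 4.5e-04), with no overlap in either. Lpcat3, which puts arachidonic acid into phospholipids, was 1.33-fold higher in miR-142 KO than in WT (log2 0.41, adjusted p = 1.6e-06) and 1.36-fold higher in BC CML than in CP CML (log2 0.44, adjusted p = 6.3e-07). Pla2g6 was called higher in both comparisons (log2 0.31 and 0.18), and Pla2g12a, named after its values were seen, in the first (log2 0.23). Acsl4 was called higher in BC CML versus CP CML (log2 0.19), and Mboat7 and Lpcat2 in miR-142 KO versus WT (log2 0.14 and 0.42). Of 5 other lipoxygenase genes 3 were tested, named here after their values were seen, at group means of 0.339 to 5.92 CPM. Alox8 was 10.8-fold higher in CP CML than in WT (log2 3.44, adjusted p = 9.0e-04) with no overlap, and Alox12 and Alox12e were lower in BC CML than in miR-142 KO (log2 -1.82 and -2.23, adjusted p = 0.0193 and 0.0323).

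Of 9 tested genes of leukotriene processing, export and breakdown, 3 were higher and 1 lower in miR-142 KO against WT, and 3 higher and 2 lower in BC CML against CP CML. Ptgr1, an oxidoreductase that inactivates leukotriene B4 and prostaglandins, was called in all 4 comparisons. Its median was 18.7 CPM in WT, 30.4 in CP CML, 32.2 in miR-142 KO and 59.2 in BC CML, and BC CML was 1.84-fold above CP CML with no overlap (log2 0.88, adjusted p = 1.6e-04). Ggt5, which trims leukotriene C4 to D4, fell in miR-142 KO against WT (log2 -0.86, adjusted p = 7.1e-06) and in BC CML against CP CML (log2 -0.64, adjusted p = 2.4e-04). Abcc1, an exporter of leukotriene C4, was 1.16-fold below its CP CML level in BC CML (log2 -0.21, adjusted p = 0.0033), Mgst3 was 1.24-fold higher (log2 0.31, adjusted p = 0.0348), and Cotl1, which binds 5-lipoxygenase, was 1.26-fold higher in miR-142 KO than in WT (log2 0.33, adjusted p = 5.3e-04). Ggt1 completes both counts of higher genes and was named after its values were seen, since it averaged below 1 CPM.

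Among the 42 genes the largest log2 difference in miR-142 KO versus WT and in BC CML versus CP CML was that of a leukotriene receptor. Cysltr1, a receptor for the cysteinyl leukotrienes, had 0.646 to 3.07 CPM in WT, 1.94 to 4.15 in CP CML, 4.25 to 25.7 in miR-142 KO and 16.004 to 23.3 in BC CML. All miR-142-/- libraries were above all miR-142+/+ libraries. It was 8.65-fold higher in miR-142 KO than in WT (log2 3.11, SE 0.35, adjusted p = 4.1e-07) and 6.70-fold higher in BC CML than in CP CML (log2 2.74, SE 0.34, adjusted p = 1.5e-06), while CP CML versus WT (log2 0.77, adjusted p = 0.0853) and BC CML versus miR-142 KO (log2 0.40, adjusted p = 0.322) were not called. Ltb4r1, the main leukotriene B4 receptor gene, was 2.19-fold higher in miR-142 KO than in WT (log2 1.13, adjusted p = 1.0e-04) and 1.85-fold higher in CP CML than in WT (log2 0.89, adjusted p = 9.8e-04). Its difference between BC CML and CP CML was a log2 of 0.33 (adjusted p = 0.185). Cysltr2 lay between 9.51 and 23.2 CPM in all libraries.

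Among prostanoid synthases, 1 of 8 tested was higher and 2 were lower in miR-142 KO against WT, and 3 were higher and 2 lower in BC CML against CP CML. Ptges2 was higher in both (log2 0.29 and 0.28, adjusted p = 0.0407 and 0.0481), Tbxas1 fell in miR-142 KO against WT (log2 -0.55, adjusted p = 0.0018), and Ptges3 and Cbr1 were higher in BC CML than in CP CML (log2 0.31 and 0.22). Ptges, the inducible prostaglandin E synthase gene, was 1.90-fold below its CP CML level in BC CML (log2 -0.93, adjusted p = 0.0333) at means of 0.538 and 1.03 CPM. Ptgds, the other prostaglandin D synthase gene, averaged below 1 CPM, was lower in both and was named after its values were seen.

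Of 6 tested prostanoid receptors, 1 was higher and 2 lower in miR-142 KO against WT, and 2 were higher and 2 lower in BC CML against CP CML. Ptgir, the prostacyclin receptor gene, had 3.24 to 5.79 CPM in WT, 5.78 to 9.78 in CP CML, 8.63 to 21.6 in miR-142 KO and 19.8 to 26.3 in BC CML. It was 3.69-fold higher in miR-142 KO than in WT (log2 1.88, adjusted p = 1.3e-07) and 3.03-fold higher in BC CML than in CP CML (log2 1.598, adjusted p = 8.4e-07), with no overlap. Ptger2, a prostaglandin E2 receptor gene, fell in both (log2 -1.59, adjusted p = 5.1e-05, and log2 -0.91, adjusted p = 0.0089). Tbxa2r, the thromboxane receptor gene, fell in all 4 comparisons, from a median of 14.6 CPM in WT through 8.82 (CP CML) and 9.73 (miR-142 KO) down to 4.84 (BC CML). Ptger3 was higher in BC CML than in CP CML (log2 0.36, adjusted p = 0.0213), and the receptor genes of prostaglandin D2, Ptgdr and Ptgdr2, did not pass the filter. Of the 4 genes of transport and breakdown, Abcc4, a prostaglandin exporter, was called higher in all 4 comparisons (log2 0.46 in miR-142 KO versus WT, 0.20 in BC CML versus CP CML).

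For Alox5, Hpgds and Ptgs1, which had the largest called log2 differences in CP CML versus WT (Alox5), BC CML versus miR-142 KO (Hpgds) and BC CML versus CP CML upward (Ptgs1), the 250 bases before the annotated start are shown (RefSeq promoter table, GRCm38.p6, which had an entry for 6 of the 8 genes). Both strands were searched for the GC box GGGCGG. The erythroid and mast cell factor motif AGATAA and the ETS factor motif GAGGAA were searched likewise. Matches are in capitals, and no match overlaps another. The windows are chr6:116461179-116461428 and chr6:65144731-65144980 on the minus strand and chr2:36230176-36230425 on the plus strand.
Alox5: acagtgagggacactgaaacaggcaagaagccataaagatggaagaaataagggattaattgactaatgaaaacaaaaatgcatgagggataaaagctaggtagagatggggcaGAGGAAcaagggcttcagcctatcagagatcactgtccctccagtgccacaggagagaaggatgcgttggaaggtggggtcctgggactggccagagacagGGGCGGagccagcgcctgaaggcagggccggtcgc
Hpgds: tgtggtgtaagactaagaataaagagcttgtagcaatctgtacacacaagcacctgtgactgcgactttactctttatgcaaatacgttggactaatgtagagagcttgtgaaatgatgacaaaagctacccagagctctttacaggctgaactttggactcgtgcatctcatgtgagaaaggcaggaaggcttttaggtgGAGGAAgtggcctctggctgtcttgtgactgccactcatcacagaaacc
Ptgs1: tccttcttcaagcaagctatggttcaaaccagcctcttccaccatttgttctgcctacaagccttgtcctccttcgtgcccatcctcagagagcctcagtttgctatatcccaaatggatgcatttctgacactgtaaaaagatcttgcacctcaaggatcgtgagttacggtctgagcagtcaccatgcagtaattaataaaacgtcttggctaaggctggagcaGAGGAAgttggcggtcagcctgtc
GGGCGG was found in 32.7% of 32851 promoters of the table and here before Alox5, starting 35 bases before the gene's start, and before Ptgs2, starting 170 bases before it. GAGGAA was in 23.3% of promoters and in 5 of the 6 listed here, all but Ltc4s. AGATAA was in 9.99% of promoters and in 0 of the 6. No measurement of these samples bears on binding at these letters.

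Marker genes of other cell types moved with several of the 8 genes, and their part in the results was not tested. Across the 24 libraries the log2 CPM of Alox5 followed the summed level of the 12 mast cell and basophil markers (Pearson r = 0.96), and within the groups r was 0.97 in WT, 0.99 in CP CML, 0.94 in miR-142 KO and 0.73 in BC CML (6 libraries each). The 12 markers were all in the table and none was at 0 throughout a group. Of these, 7 were higher in miR-142 KO than in WT, 9 in BC CML than in CP CML and 10 in CP CML than in WT, and the others were not called. The mast cell protease gene Cma1 had 0.586 to 4.35 CPM in WT and 1.06 to 8.71 in miR-142 KO, but 919 to 2784 in BC CML and 353 to 819 in CP CML. The basophil protease gene Mcpt8 had 11.4 to 158 CPM in WT, 93.7 to 173 in CP CML, 31.6 to 657 in miR-142 KO and 85.1 to 283 in BC CML, so the groups did not stand in the same order for these markers. Other lists also went with Alox5 in places. Over 24 libraries r was 0.83 for primary granule markers of neutrophil priming and 0.76 for monocyte and dendritic cell markers. Eosinophil markers had 0.88 in WT and 0.87 in miR-142 KO but 0.09 in CP CML and 0.29 in BC CML. Megakaryocyte and platelet markers had 0.86 in BC CML and 0.72 in CP CML but 0.35 in miR-142 KO and -0.27 in WT. Mature neutrophil markers had 0.80 in BC CML but 0.29 in WT, 0.41 in miR-142 KO and -0.44 in CP CML.

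Lta4h followed the 6 primary granule markers of neutrophil priming (r = 0.91 over 24 libraries, 0.87 to 0.96 within groups), whose summed level was 1249 to 4858 CPM in WT, 4490 to 7653 in CP CML, 2769 to 7552 in miR-142 KO and 5838 to 8574 in BC CML. All 6 were higher in miR-142 KO than in WT and 3 were higher in BC CML than in CP CML. Alox15 followed the 8 eosinophil markers within WT (r = 0.98), miR-142 KO (0.86) and CP CML (0.92) and less closely in BC CML (0.42). Other lists also went with Alox15 in some groups. Mast cell and basophil markers had r = 0.86 in WT and 0.92 in miR-142 KO but -0.34 in CP CML and -0.39 in BC CML. Marrow macrophage markers had 0.89 in CP CML and 0.86 in BC CML but 0.30 in WT and 0.04 in miR-142 KO. The eosinophil sum was 62.4 to 1821 CPM in WT, 341 to 1486 in CP CML, 269 to 1875 in miR-142 KO and 64.0 to 254 in BC CML, and 7 of the 8 markers were lower in BC CML against CP CML. The miR-142 KO replicates 4 and 5, with the least Alox15, had the lowest eosinophil sums of that group, 326 and 269 CPM. Replicate 3 had 342 CPM, and replicates 1, 2 and 6 had 1539 to 1875. The gene Klf2 was also lowest in replicates 4 and 5, at 5.99 and 7.31 CPM against 41.6 to 81.9 in replicates 1, 2, 3 and 6. Its r with Alox15 within miR-142 KO was 0.97. Macrophage markers moved with Hpgds between miR-142 KO and WT, with 7 of 9 lower in miR-142 KO (summed level 15.0 to 108 CPM), and WT replicate 3 had the highest value of both in its group. Without that library Hpgds in CP CML exceeded WT by a log2 of 2.00 (adjusted p = 1.1e-06).

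Alox5ap ran opposite to the 8 HSC (hematopoietic stem cell) markers (r = -0.91 over 24 libraries), as did Lta4h (-0.84) and Alox5 (-0.82). The HSC sum was 484 to 956 CPM in WT, 361 to 495 in CP CML, 292 to 419 in miR-142 KO and 226 to 319 in BC CML, and none of the markers was at 0 throughout a group. Of the 8 markers 5 were lower and 1 higher both in miR-142 KO against WT and in BC CML against CP CML. For Alox5ap the r within groups was -0.84 (WT), -0.80 (CP CML), -0.05 (miR-142 KO) and -0.31 (BC CML), so the relation was not seen within miR-142 KO. For Lta4h it was -0.90 (WT), -0.64 (CP CML), 0.37 (miR-142 KO) and -0.81 (BC CML). For Alox5 it was -0.83 (WT), 0.02 (CP CML), 0.15 (miR-142 KO) and -0.24 (BC CML), so its r over 24 libraries mostly takes in the group means. Ptgs1 went with the 12 megakaryocyte and platelet markers inside each group (r = 0.58 to 0.85) but less over all 24 libraries (0.39). Their sum was 302 to 426 CPM in WT, 375 to 501 in CP CML, 296 to 867 in miR-142 KO and 362 to 527 in BC CML. In BC CML against CP CML, where Ptgs1 rose, 1 of these markers was higher and 2 were lower of 11 tested. Other lists went with Ptgs1 more closely in places. Over 24 libraries r was 0.52 for the mature neutrophil markers and 0.50 for the primary granule markers. Marrow macrophage markers had 0.80 in WT and 0.92 in miR-142 KO but 0.09 in CP CML and 0.15 in BC CML. Mature neutrophil markers had 0.94 in BC CML and 0.34 to 0.42 in the other groups.

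**Figure D4:**
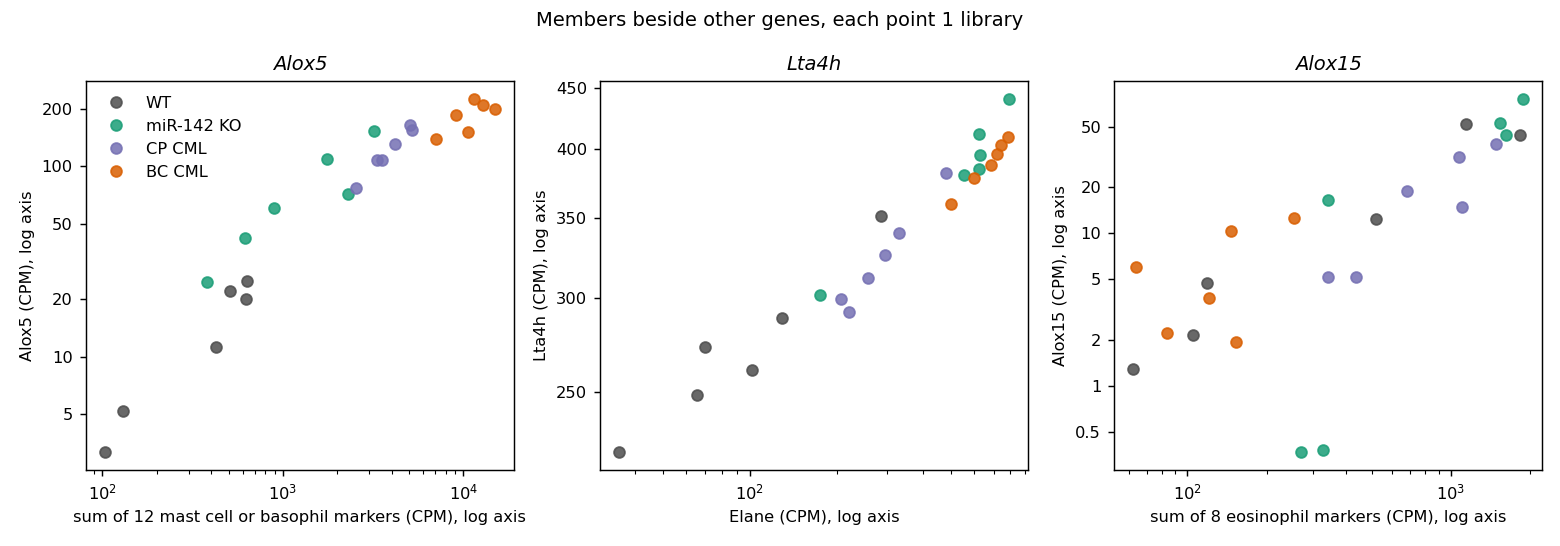
Each point is 1 library, coloured by group, with CPM on log axes: Alox5 against the sum of 12 mast cell and basophil markers, Lta4h against Elane, and Alox15 against the sum of 8 eosinophil markers. Alox5 climbs with the marker sum within each group (r from 0.73 to 0.99), Lta4h with Elane likewise (0.96 to 0.99), and 2 miR-142 KO libraries lie far below the others for Alox15.

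The genes most alike in pattern were found by Pearson correlation of log2 CPM over the 24 libraries, which fall into 4 groups, so r takes in the group means. For Alox5 they were Il1rl1 (r = 0.963), Fcer1a (0.952) and Gas7 (0.952), the first a receptor for interleukin-33 and the next the high-affinity IgE receptor chain, both also on the mast cell and basophil list. For Alox5ap they were Lamtor4, Clta and Atp6ap1 (0.939 to 0.947), which belong to the lysosome or clathrin machinery. Lta4h was most like Elane, the neutrophil elastase gene (r = 0.977, and 0.96 to 0.99 within each group), which ranged from 35.2 to 285 CPM in WT, 208 to 480 in CP CML, 175 to 791 in miR-142 KO and 498 to 787 in BC CML. Tmed3 and Olr1 came next (0.966 and 0.952). Alox15 was most like Serpinb2, Klf4 and Klf2 (0.895 to 0.911) and Ptgs2 most like Klf2, Klf4 and Plk3 (0.886 to 0.910), so the same Klf genes stood in both lists. Alox15 and Ptgs2 themselves had r = 0.79 over 24 libraries, and within groups 0.76 (WT), 0.31 (CP CML), 0.93 (miR-142 KO) and 0.50 (BC CML). For Ptgs1 the most alike were Fam214b, Ttc12 and Tmem87b (0.873 to 0.885), and for Hpgds they were Pla2g7, a phospholipase that breaks down platelet-activating factor, Filip1l and Fmn1 (0.892 to 0.909). Ltc4s had the weakest likeness, with Lsr at 0.831, Tsnax at 0.826 and Snora17 at 0.815. Within the set, Alox5ap and Lta4h had the highest r of any pair (0.86), Alox5 and Alox5ap had 0.78, and Hpgds had at most 0.50 with any other member.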

How the data were processed

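RNA was sequenced from sorted BM LSKs of 24 mice, 6 per group, as paired reads from a Kapa mRNA HyperPrep library. Per the labels and the study's methods, the authors trimmed reads with Trimmomatic and FASTP, aligned them to mm10 with STAR 2.6.0 and counted them per gene with HTSeq-count 0.11.1. The deposited values are these raw counts. The gene annotation and the strand setting are not given in the sources used here. The study's methods give 5 mice per group, and the 6 with files were used.

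From the counts, 13520 of 24091 genes passed filterByExpr and were tested with edgeR 4.0.16 (R 4.3.3) by the quasi-likelihood test, with TMM scaling, 1 mean per group, all 24 libraries in 1 fit and Benjamini-Hochberg adjustment, at a threshold of 0.05. CPM and RPKM used the TMM-scaled library sizes, RPKM also the gene length of the file, and correlations used log2 CPM with a prior count of 2. Replicates are separate mice, numbered in accession order within each group. No 2 libraries of a group agreed within sampling noise (lowest chi-square per degree of freedom 5.99). The procedure was tested on simulated data.

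Named pathway genes were up to 5 per role with the smallest p in BC CML versus CP CML and in miR-142 KO versus WT among those called that averaged 1 CPM or more, and those whose difference of effects was called; for each of the 8 genes, the 3 most alike were also named. The members and lists were chosen with earlier results of these data known. Alternatives were the likelihood ratio test, DESeq2 1.42.0, RLE and upper quartile scaling, other filters, sex as a covariate, only the libraries compared, a fold limit, another prior count and leaving out each library. Those for BC CML versus WT and CP CML versus miR-142 KO were added after seeing the data.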

Additional observations from a re-analysis of the deposited data

Results flagged for a closer look

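In BC CML, replicate 5 had 18.5 CPM of Ptgs2 while the next library had 10.5, a gap of 0.732 of the group's whole range. It was the only such value among 32 groups of 6 libraries looked at for the 8 genes, and about 1 group in 20 would show such a gap by chance.

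Of the 42 further pathway genes, 2 had an effect of miR-142 loss that differed between mice with and without BCR-ABL (edgeR's quasi-likelihood test of the difference of effects, BC CML versus CP CML minus miR-142 KO versus WT), a share near the 3.99% of all genes called. The count went from 0 (without WT replicate 1) to 6 (without miR-142 KO replicate 5) when 1 library was left out, and moved by over 1.5 times in 13 of 24 such fits. For Lpcat2, a lysophosphatidylcholine acyltransferase gene, the difference was a log2 of -0.73 (SE 0.19, adjusted p = 0.0332), with 0.42 in miR-142 KO versus WT and -0.31 in BC CML versus CP CML. For Cbr1, a carbonyl reductase gene, it was a log2 of 0.35 (SE 0.09, adjusted p = 0.0386), with -0.12 and 0.22.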

How the results depend on the processing

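Over the fold changes of the 8 genes in 5 comparisons and the alternatives other than leaving out a library, 292 values kept their direction and side of the threshold, 12 were newly called, 7 were no longer called and 1 turned its sign, the log2 of -0.0239 of Lta4h in BC CML versus miR-142 KO under upper quartile scaling. Causes of these changes were not tested. For the difference of effects, the likelihood ratio test and DESeq2 each called 1 of the 8 genes (Alox5), DESeq2 called 4 pathway genes and 895 of all genes (against 539), and no filter on low counts gave 1 pathway gene. With only the libraries compared, 7 of the 8 genes were called in BC CML versus CP CML (4 higher, 3 lower) and 3 in CP CML versus miR-142 KO. Of all genes 43.3% and 32.5% were called in these fits. With an absolute log2 fold change of at least 1 required, the genes called among the 8 numbered 0 in BC CML versus CP CML, 1 in miR-142 KO versus WT, 2 in CP CML versus WT, 2 in BC CML versus miR-142 KO, 1 in BC CML versus WT and 1 in CP CML versus miR-142 KO. In the first 4 of these, pathway genes numbered 2, 4, 3 and 3 and all genes 992, 1054, 930 and 828, and for the difference of effects 0 and 168. For BC CML versus WT and CP CML versus miR-142 KO no count over all genes with that limit is given here. With a prior count of 0.5 the r of Alox15 with Serpinb2 was 0.897.

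Leaving out 1 library at a time gave 0 to 1 of the 8 genes and 0 to 6 pathway genes for the difference of effects, 12 (without CP CML replicate 3) to 19 pathway genes in BC CML versus CP CML, and 2 to 5 of the 8 genes in CP CML versus miR-142 KO. Of all genes, 375 to 787 were called for the difference of effects and 4404 to 5608 in BC CML versus CP CML. For CP CML versus miR-142 KO no share over all genes is given here for these fits, so that count is not read further. The log2 ranged from -0.06 to 0.0448 for Lta4h in BC CML versus miR-142 KO, from -0.34 to 0.57 for Alox15 in CP CML versus WT and from -0.312 to 0.0256 for the difference of effects of Ltc4s. Upper quartile scaling changed the share of higher genes among all genes called from 53.7% to 42.4% in BC CML versus CP CML and from 54.7% to 42.0% in miR-142 KO versus WT. With sex as a covariate, the counts for the 8 genes stayed the same. No paired analysis was possible because the labels give no replicate numbers shared between groups. Depth limits precision where counts are low, as for Ltc4s (30 to 113 counts per library) and for Alox15 and Ptgs2, whose lowest libraries had 9 and 24 counts.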
